A study of Drosophila melanogaster with 2 samples.

Results

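The genes for the proteins of the large subunit of the cytosolic ribosome were examined for binding of CG7271, a protein of Drosophila melanogaster, near their transcription start sites (TSSs). The members were all protein-coding genes of the Ensembl annotation whose symbol is RpL followed by a digit or by P, which gave 54 of 13945 protein-coding genes (0.387%). Genes of mitochondrial ribosomal proteins, written mRpL, were not taken. No measured value entered this choice. Chromatin immunoprecipitation followed by sequencing (ChIP-seq) had been carried out on whole embryos at 0 to 4 hours of age, of a fly line that stably makes CG7271 fused at its C-terminus to green fluorescent protein (GFP), with an antibody against GFP per the sample description. Another label names CG7271 as the antibody. The 2 libraries, biological replicates 2 and 3, come from different biosamples of this line and carry the same fusion, so they form 1 group and no group without the fusion was analysed here. The cells that make the fusion and its level relative to the normal protein are not stated in the labels. In whole embryos, binding in a small share of cells and weak binding in all cells cannot be told apart.

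The large subunit joins amino acids into protein, and it is built from ribosomal RNA and many proteins needed in equal amounts. In Drosophila, loss of 1 copy of many ribosomal protein genes gives the Minute phenotype of slow development and thin bristles. Many ribosomal protein genes of the fly start transcription within a stretch of pyrimidines, the TCT initiator, in place of the usual initiator. Early embryos start with ribosomes supplied by the mother and switch on their own genes within the age range sampled.

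The authors deposited 1 list of 30000 peaks for each replicate, 1 list of 30000 peaks called on both replicates together (the pooled list), and a shorter list of 2445 peaks. The last holds the peaks kept after a cut on the irreproducible discovery rate (IDR), a measure of how alike peaks rank in the replicates. Those 2445 peaks held the ranks 1 to 2445 of the pooled list by signal, so a rank in the IDR list is also a rank in the pooled list. Membership therefore followed the pooled signal, and the ranks of a single member in the replicates could differ. The signal is the authors' own measure of each peak, without a stated scale, and signals of different lists are not on 1 scale. Read depth is unknown, because the files give no read counts. A promoter summit means a peak's point of highest signal lying within 500 bp of any annotated TSS of the gene. Where a gene had several, the summit of highest signal is given. All positions are in the dm6 assembly.

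An IDR promoter summit was found at 45 of the 54 RpL genes (83.3%), compared with 12% of all protein-coding genes. The pooled list had a promoter summit at 51 of them, against 54.2% of all protein-coding genes, so 6 genes had a pooled summit below the IDR threshold and 3 had none in any list. The 2445 highest peaks of replicate 2 reached 45 RpL genes, and those of replicate 3 reached 43. These shares were 12.2% and 12.1% over all protein-coding genes. In both replicates at once, 43 RpL genes had a summit among those peaks, compared with 8.60% of all genes. The full lists of replicates 2 and 3 each reached 51 RpL genes, where 53.3% and 53.3% of all protein-coding genes had a summit. All of these are counts over genes of the same 2 libraries, and no test was made of them.

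Among the 500 highest pooled peaks the RpL genes were reached in 32 cases, against 2.75% of all protein-coding genes, and they made up 8.33% of the 384 genes reached. The IDR summits at RpL genes were 45 different peaks, 1 for each gene. Their median rank was 225, with quartiles at 125 and 546, while the median rank at the other 1633 protein-coding genes with an IDR promoter summit was 1173. The median signal was 333.9 at RpL genes and 159.8 at the other genes, in a pooled list whose own median was 51.3.

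**Figure D1:**
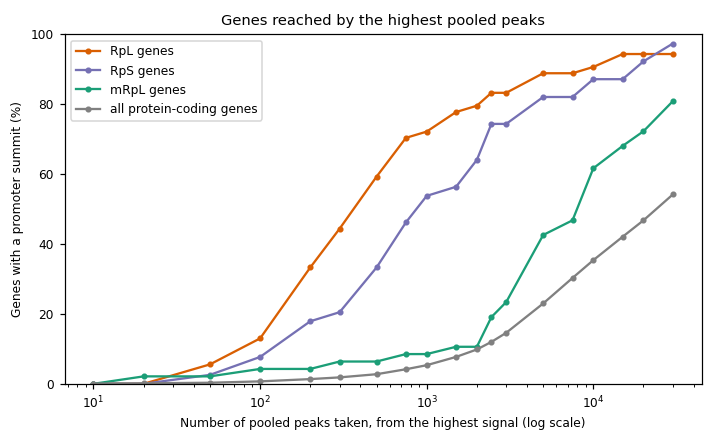
Percent of genes with a promoter summit (vertical axis) among a given number of pooled peaks, taken from the highest signal down (horizontal axis, log scale), for RpL, RpS and mRpL genes and for all protein-coding genes. With 200 peaks 33.3% of RpL genes were reached against 1.35% of all genes, and with 2445 peaks 83.3% against 12%.

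Among the genes named here, RpL14 had the highest peak (3L, 8600829 to 8601141). It ranked 34 in the pooled list with a signal of 651.0, 30 in replicate 2 (395.2) and 34 in replicate 3 (268.3). RpL24, whose protein reaches out to the small subunit, had rank 47 (558.4) and ranks of 46 and 63 in the replicates. At both genes the replicate peaks had signals of 9.49 to 12.5 times the median of their list.

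The next members were RpL7 at rank 63 (89 and 41 in replicates 2 and 3), RpL13A at 81 (106 and 74) and RpLP0 at 92 (88 and 116). RpLP0 encodes the protein that anchors the stalk of the large subunit. RpL41, which encodes a very small basic peptide held between the subunits, had rank 100 (103 and 83), RpL34a had 103 (134 and 69) and RpL9 had 112 (90 and 160). RpL38 had rank 118 (96 and 149). In the mouse, loss of Rpl38 function alters patterning of the axial skeleton. RpL28 had rank 119 (121 and 141) with a second IDR summit at 2031, and RpL30 had rank 125 (122 and 139). All 11 of these genes stood within the 160 highest peaks of each replicate.

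**Figure D2:**
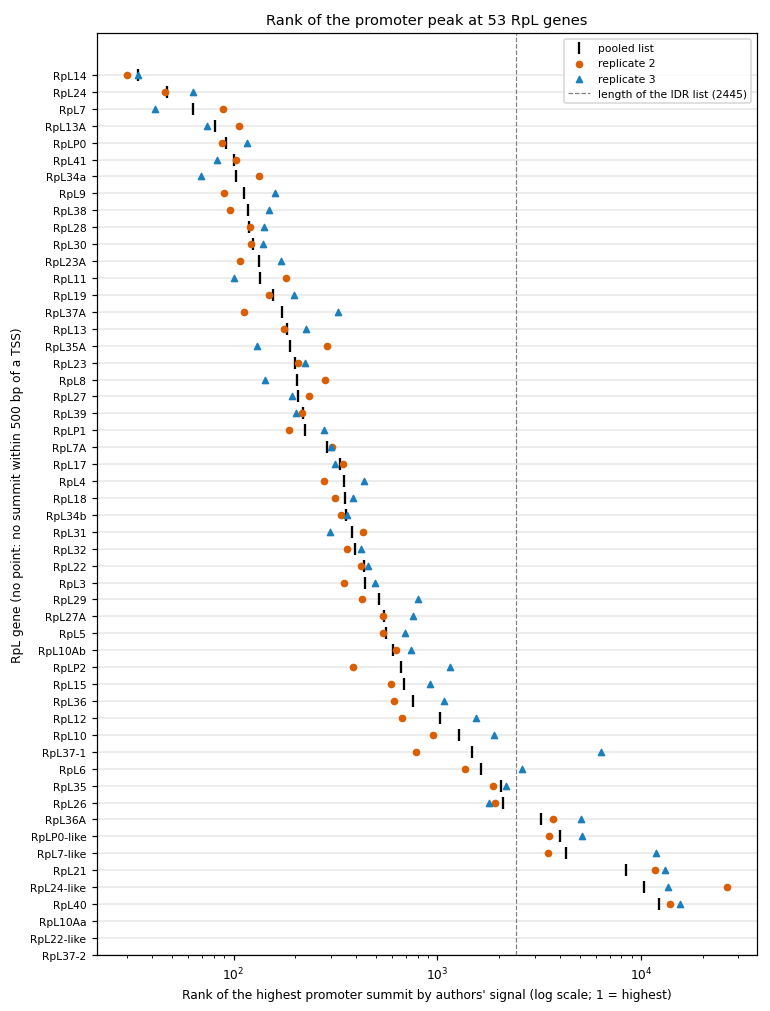
Rank of the highest promoter summit at 53 RpL genes (vertical axis, ordered by pooled rank) in the pooled list, replicate 2 and replicate 3 (horizontal axis, log scale, 1 is the highest signal). The dashed line marks 2445, the length of the IDR list, which 42 of the genes shown reached in both replicates, and the 3 genes without points had no promoter summit in any list.

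Sequence at the start sites is shown for the 6 highest members on chromosome arms other than the right arm of chromosome 2, since the summits lay close to these starts. Each line runs 5′ to 3′ on the strand of the gene, from at most 60 bp before the TSS to 20 bp from it, the TSS being the start nearest to the summit. Lines are shorter where an annotated transcript already covers the upstream part. Capitals mark the longest run of C and T that reaches past 5 bp before the TSS. The letters come from RefSeq's sequence of that assembly (Release 6).
RpL14 (chr3L:8600946-8601025, plus strand): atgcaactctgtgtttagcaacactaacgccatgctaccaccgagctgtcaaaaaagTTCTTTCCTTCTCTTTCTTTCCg
RpL24 (chr2L:13395112-13395191, minus strand): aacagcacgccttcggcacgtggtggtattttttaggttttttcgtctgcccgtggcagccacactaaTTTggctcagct
RpL7 (chr2L:10201090-10201119, plus strand): gcacgtttccggTCTTTCTTTCCCTTTCTT
RpL13A (chr3R:5624414-5624493, plus strand): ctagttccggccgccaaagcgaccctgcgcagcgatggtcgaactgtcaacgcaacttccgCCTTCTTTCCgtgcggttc
RpLP0 (chr3L:22076082-22076111, plus strand): ccgccaacttcaCTCTTTCCgttctgtgag
RpL34a (chr3R:26059248-26059327, minus strand): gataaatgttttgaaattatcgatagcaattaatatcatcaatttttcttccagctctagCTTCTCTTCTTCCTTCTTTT

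Followed in the genome past the last base shown where it reached that base, the run of pyrimidines was 22 bases long at RpL14, 20 at RpL34a, 20 at RpL7, 10 at RpL13A and 8 at RpLP0. At RpL24 it was only 3 bases at the start shown, which is the upstream start of 2. The summits lay 14 bp upstream of the TSS at RpL14, 25 bp at RpL7, 51 bp at RpL13A, 21 bp at RpLP0 and 57 bp at RpL34a, and 11 bp downstream at RpL24.

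By the role of the protein, IDR summits were found at all members of the stalk (4), 5S particle (2) and exit tunnel (9) groups. They were also found at 23 of 24 members in no role or paralog group, so the full counts do not set these groups apart. The stalk recruits the translation factors that use GTP, and its genes were RpLP0, RpLP1, RpLP2 and RpL12, the last encoding a protein at the stalk base. RpLP1 had rank 225 (187 and 277 in replicates 2 and 3), RpLP2 660 (387 and 1150) and RpL12 1029 (669 and 1551). For RpLP2 and RpL12 the rank in replicate 3 was therefore lower on the list by more than 2-fold. RpL11 and RpL5 encode the proteins that bind 5S ribosomal RNA before it enters the subunit. RpL11 had rank 135 (180 and 100) and RpL5 had rank 560 (543 and 693).

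The tunnel through which the new chain leaves is lined by RpL4, RpL17 and RpL39, and RpL19, RpL22, RpL23A, RpL26, RpL31 and RpL35 lie around its exit. RpL23A, which forms part of the docking site of the signal recognition particle, had the highest rank of these at 133 (107 and 171), followed by RpL19 at 157 (149 and 198) and RpL39 at 219 (216 and 203). RpL17 had rank 334, RpL4 348, RpL31 380 and RpL22 436, all with replicate ranks between 278 and 457. RpL35 and RpL26 were the lowest-ranked members in the IDR list. RpL35 had rank 2057 with a signal of 124.9 (1874 and 2178), and RpL26 had rank 2090 with 124.1 (1908 and 1789), where the lowest signal in the IDR list was 115.4. The exit tunnel genes thus spanned ranks 133 to 2090.

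Proteins near the catalytic centre and the sites of transfer RNA were represented by RpL3, RpL8, RpL10, RpL10Ab and RpL36A. RpL8 had rank 205 (281 and 143), RpL3 442 (348 and 492), RpL10Ab 603 (627 and 741) and RpL10 1279 (955 and 1887). RpL36A, whose protein contacts the exit site of transfer RNA, had no IDR summit. Its highest pooled summit had rank 3209 with a signal of 102.4 and lay 79 bp downstream of a TSS in an intron, with ranks of 3678 and 5047 in the replicates. It was the highest-ranked RpL gene outside the IDR list.

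A further 13 genes with an IDR summit, in none of the role or paralog groups, were RpL37A (rank 172), RpL13 (182), RpL35A (189), RpL23 (201), RpL27 (206), RpL7A (289), RpL18 (353) and RpL32 (396), a common reference gene in fly expression studies. They were followed by RpL29 (520), RpL27A (546), RpL15 (683), RpL36 (762) and RpL6 (1631). Of these 13, all but RpL6 were among the 2445 highest peaks of both replicates, and RpL6 had rank 1372 in replicate 2 and 2614 in replicate 3. RpL37A was the member of this group whose replicate ranks differed most in proportion, with 112 in replicate 2 and 324 in replicate 3.

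Of the 9 RpL genes without an IDR summit, 6 encode paralogs of, or proteins related to, another member. RpL10Aa (3R), RpL22-like (2R) and RpL37-2 (2R) had no promoter summit in any of the 4 lists. Transcripts of RpL22-like and RpL37-2 are best known from the male germline. Their counterparts had ranks of 603 (RpL10Ab), 436 (RpL22) and 1481 (RpL37-1). RpL37-1 was the member least alike in the replicates, with rank 788 (signal 113.7) in replicate 2 and 6323 (31.3) in replicate 3.

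RpLP0-like, RpL7-like and RpL24-like are relatives whose yeast counterparts assist assembly of the subunit. RpLP0-like had a pooled rank of 3977 (3518 and 5115 in replicates 2 and 3) 60 bp upstream of the TSS, compared with 92 at RpLP0. RpL7-like had 4288 (3499 and 11796), compared with 63 at RpL7. RpL24-like had 10313 (26310 and 13470), with the summit 390 bp upstream, compared with 47 at RpL24. Each of these pooled summits was nearer to the TSS of another gene. At RpLP0-like it lay 27 bp upstream of the TSS of 14-3-3zeta. At RpL7-like it lay 122 bp upstream of that of JhI-21, against 162 bp from that of RpL7-like. At RpL24-like it lay 90 bp downstream of that of CG5276. These summits therefore cannot be credited to the RpL relatives alone. RpL34a and RpL34b, a pair of paralogs for the same protein, both had IDR summits, at ranks 103 and 356 (338 and 359 for RpL34b in the replicates). Thus 3 of 9 paralogs or relatives had an IDR summit, as did 42 of the other 45 members.

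The 3 other genes without an IDR summit were RpL36A, RpL21 and RpL40. RpL40 encodes ubiquitin fused to a ribosomal protein. Its pooled summit, 26 bp downstream of the TSS, had rank 12259 and a signal of 55.9, only 1.09 times the median of the list, with ranks of 13867 and 15574 in the replicates. RpL21 had rank 8467 with 65.6 (11739 and 13117), 15 bp downstream. Both lay at the start itself, as most IDR summits at RpL genes did, but with signals near the middle of the lists.

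For contrast, the same stretch is given for the members outside the IDR list on chromosome arms other than the right arm of chromosome 2, in the format used above. Capitals again mark the longest run of C and T near the start.
RpL36A (chr2L:8042840-8042869, minus strand): atcgctatgtgaTTTCCTTCTTTTTTCgcc
RpL7-like (chr2L:12056266-12056345, plus strand): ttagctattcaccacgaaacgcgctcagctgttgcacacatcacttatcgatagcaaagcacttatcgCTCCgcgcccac
RpL21 (chr2L:22247856-22247935, minus strand): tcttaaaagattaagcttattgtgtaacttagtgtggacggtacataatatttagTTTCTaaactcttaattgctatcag
RpL24-like (chr3R:11431563-11431642, minus strand): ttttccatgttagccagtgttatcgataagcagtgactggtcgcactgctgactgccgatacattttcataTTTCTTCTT
RpL40 (chr2L:4227639-4227718, plus strand): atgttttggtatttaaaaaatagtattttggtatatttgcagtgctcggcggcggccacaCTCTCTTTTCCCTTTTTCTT
RpL10Aa (chr3R:15037306-15037385, plus strand): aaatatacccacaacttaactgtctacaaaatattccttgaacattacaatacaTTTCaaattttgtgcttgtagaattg

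Followed past the last base shown in the same way, RpL40 and RpL36A had runs of 22 and 15 pyrimidines at the start, as long as those of several members with a high rank. The runs were 13 bases at RpL24-like, 5 at RpL21, 4 at RpL7-like and 4 at RpL10Aa. RpL21 and RpL7-like each have 2 annotated starts, of which the upstream one is shown. Both had a TCT initiator within 10 bp of an annotated TSS, by the reading given below. A long run at the start was thus present at genes on both sides of the IDR threshold.

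The replicates ordered the 45 RpL genes with an IDR summit alike. Spearman's rho between their ranks was 0.913 over 45 sites, given as a description, since all sites come from the same 2 libraries. Over 1621 other genes with an IDR promoter summit and a summit in both replicates, rho was 0.614. Some agreement was also built in, because the sites were chosen by a high signal in the pooled list, which was called on both replicates together. Ranks in replicates 2 and 3 were within 2-fold of each other at 38 of 45 RpL genes (84.4%) and at 67.9% of 1621 other genes with an IDR promoter summit and a summit in both replicates. The median ratio was 1.41 for RpL genes and 1.56 for the others. Rank was not matched in these comparisons, and the median pooled rank was 225 for RpL genes and 1173 for all other genes with an IDR promoter summit. Replicate 2 placed the RpL gene higher in 32 cases and replicate 3 in 13. This split was not counted over other genes, so it is not read as a trait of RpL genes. A summit of each replicate list lay within 100 bp of all 45 pooled summits. Such agreement was also built in, since the pooled list was called on both replicates together. Other IDR promoter summits were not counted in this way, so this count is not read as a trait of RpL genes. The highest replicate summits at the RpL genes were a median of 18.0 bp apart, at most 161 bp.

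Summits at RpL genes lay close to the start of transcription. Their median position was 14 bp upstream of the nearest TSS of the RpL gene (quartiles -41 and 0 bp, range -109 to 31 bp), and 38 of 45 (84.4%) lay within 50 bp of it. Upstream of the TSS lay 33, 1 was at the TSS (RpL7A) and 11 were downstream, all in an exon. At the other genes with an IDR promoter summit, 1374 were upstream, 255 downstream and 4 at the TSS. Of those off the TSS, 84.3% were upstream, a higher share than at RpL genes. An upstream position is therefore not read as a trait of RpL genes. In replicate 2 the median at RpL genes was -18 bp and in replicate 3 it was -13 bp, with 37 and 38 summits within 50 bp. The 1117 IDR promoter summits elsewhere had a median of -88 bp from the nearest protein-coding TSS, and 26.2% were within 50 bp. Restricted to those among the 500 highest pooled peaks (229 summits), the median was -112 bp and 17.5% lay within 50 bp. Several TSSs are annotated for 22 of the 45 RpL genes, and measured from the outermost 5′ end of the gene alone the median was 1 bp and 22 summits were upstream.

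**Figure D3:**
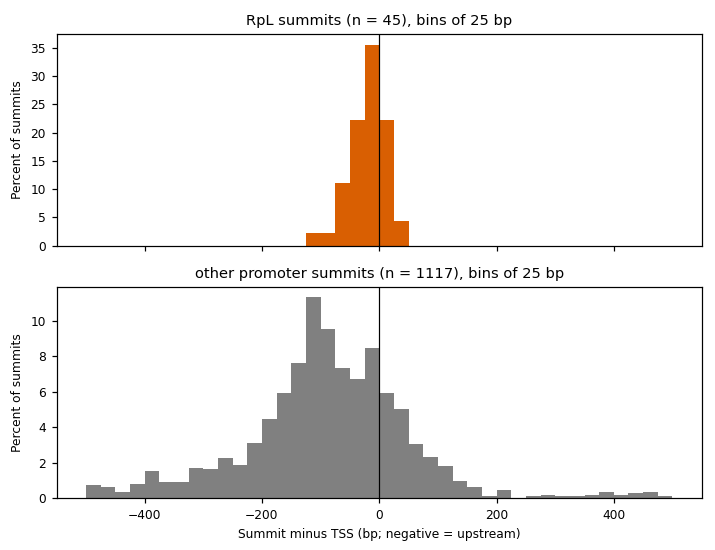
Position of IDR promoter summits relative to the TSS (horizontal axis in bp, negative is upstream, bins of 25 bp) as percent of summits, for 45 RpL summits from the nearest TSS of the RpL gene (upper panel) and 1117 other summits from the nearest protein-coding TSS (lower panel). RpL summits lie between -109 and 31 bp, while the other summits spread across the whole 1000 bp with a median of -88 bp.

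Among the farthest summits upstream were those of RpL34b (109 bp), RpLP1 (97 bp), RpL41 (62 bp) and RpL34a (57 bp), and all of these shared the interval with a divergent gene. The farthest downstream were at RpL9 and RpL36, both 31 bp into the gene. At 15 of the 53 genes named here the pooled list held more than 1 promoter summit. The 16 further summits had signals of 41.4 to 125.8, and 13 lay 199 to 259 bp from the first, 11 of the 16 upstream of the TSS. None lay nearer to the first than 199 bp, and whether the peak calling set a least spacing is not stated. Other genes were not counted in this way, so neither the number nor the spacing is read as a trait of RpL genes.

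Another gene had a TSS within 500 bp of the IDR summit at 23 of 45 RpL genes (51.1%), compared with 63.0% of the other genes with an IDR promoter summit. With TSSs within 200 bp of the same summits the shares were 12 of 45 (26.7%) and 47.9%, and within 1000 bp they were 36 of 45 (80%) and 69.4%, so the order of the shares turned with the distance. The 1633 other genes outnumber the 1117 promoter summits outside the RpL genes, and they include neighbours at RpL summits. A summit shared by several of them counted once for each, whereas each RpL summit counted once. The shares are therefore on unlike units, and no difference in sharing is drawn from them. Among the 23 RpL genes, the partner was a protein-coding gene transcribed away from the RpL gene in 18 cases. RpL13A had 2 such partners, Dph4 and Spec2, whose annotated starts coincide. In all 19 pairs the summit was nearer to the TSS of the RpL gene. At RpL14, for example, the summit lay 14 bp from the RpL14 TSS and 113 bp from that of Nelf-E, a subunit of the factor that pauses RNA polymerase. At RpL13 it lay 6 bp from the RpL13 TSS and 95 bp from that of Dref, which encodes the factor that binds the DNA replication-related element. At RpL28 these distances were 32 bp and, to the start of the translation factor gene eIF1, 349 bp. RpL7 was paired with Ripalpha, RpLP0 with CG7130, RpL41 with the sodium channel gene NaCP60E, RpL34a with Trmt61 and RpL19 with CG3776. Further pairs were RpLP1 with CG13690, RpL4 with BCAS2, RpL18 with Neos, RpL34b with CG8132, RpL32 with CG7943, RpL3 with CG6693, RpL29 with Sgf29 and RpL36 with Mybbp1A.

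Small nucleolar RNAs (snoRNAs), which guide modification of ribosomal RNA, are commonly made from introns of ribosomal protein genes. Annotated snoRNA genes lay within 16 of the 54 RpL genes on the same strand, 33 in all. An IDR summit was found at 15 of these 16 genes, against 45 of all 54 RpL genes (83.3%). The count therefore does not set the genes that hold snoRNAs apart. The exception was RpL36A, which holds snoRNA:Psi28S-2648. A snoRNA start lay within 500 bp of the RpL summit at 5 genes (RpL14, RpL28, RpL17, RpL10Ab and RpL15), each 128 to 467 bp downstream of the RpL TSS. RpL17 also had a transfer RNA gene, tRNA:Phe-GAA-1-2, 372 bp upstream of its TSS. At RpL37A and RpL22 the partners were a non-coding RNA on the opposite strand, asRNA:CR45305 and lncRNA:CR44966. RpL12 and RpL39, which are neighbours on 2R and meet tail to tail, had separate summits at their own starts, 27 bp upstream and 2 bp downstream.

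Summits at RpL genes were richer in G and C than promoter summits elsewhere, and close in base composition to other summits near a TSS. Over the 101 bp centred on the summit, GC content was 44.8% ± 7.47 (SD over 45 summits) at RpL genes and 34.9% ± 11.2 (SD over 1117 summits) at other IDR promoter summits. The medians were 45.5% and 32.7%, and 42 of the 45 RpL windows lay above the median of the others. Among the other promoter summits, the 293 within 50 bp of a TSS had 43.6% ± 8.85 (median 44.6%). Windows centred on a TSS had a median of 43.6% over all protein-coding genes.

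**Figure D4:**
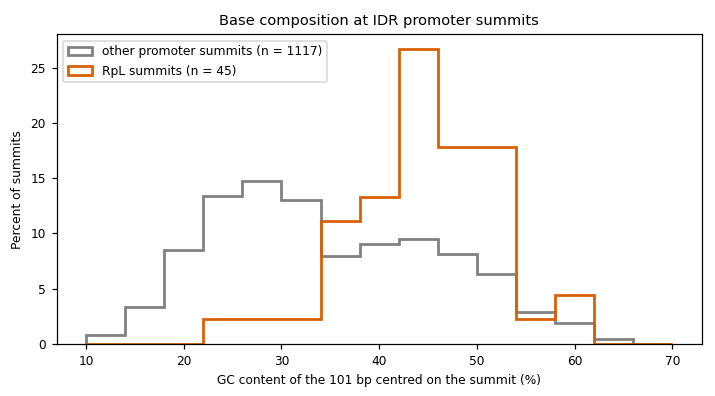
GC content of the 101 bp centred on the summit (horizontal axis, percent) as percent of summits (vertical axis) for 45 RpL summits and 1117 other IDR promoter summits. RpL summits have a median of 45.5%, the others 32.7% with a wide spread.

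Sequences of known promoter factors were sought within 50 bp of the summits by their exact letters on both strands, and none of the 5 motifs contains another. The DNA replication-related element (DRE, TATCGATA) was present at 8 of 45 RpL summits (17.8%), among them RpL41, RpL34a, RpL19, RpL27, RpL39, RpL36 and RpL37-1. It was present at 3.85% of the 1117 other promoter summits, at 10.2% of those within 50 bp of a TSS, and within 50 bp of 5.48% of all protein-coding TSSs. Centred on the TSS nearest to the summit, the RpL count was 5 of 45 (11.1%). The M1BP motif (GGTCACAC), bound by a zinc finger protein of housekeeping promoters, was present at 5 RpL summits (11.1%), namely RpLP0, RpL30, RpL37A, RpL27A and RpL6. Its share was 2.95% at the other promoter summits, 7.17% at those near a TSS and 5.66% over all TSSs. No RpL summit held both of these motifs.

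A TATA box, read as TATAAA, was present at 4 RpL summits (8.89%; RpL38, RpL39, RpL34b and RpL29), compared with 23.7% of the other promoter summits, 12.6% of those near a TSS and 16.8% of all TSSs. Within 100 bp of the summit the shares were 9 of 45 (20%) and 36.9% of the other promoter summits. The site of the early activator Zelda (CAGGTA) was found at 0 of 45 RpL summits and at 1.70% of the others. GAGAG, the core of the GAGA factor site, was found at RpL4 and RpL29 (4.44%), against 9.85% of the others. Within 100 bp of the summit it was found at 5 of 45 (11.1%) and 21.2% of the others, while within 50 bp of the TSS it was found at 6 of 45 RpL genes (13.3%) and 11.6% of all protein-coding genes, so its share was not lower there. Among the 9 genes without an IDR summit, the DRE was present within 50 bp of the TSS of RpL36A, RpL7-like and RpL24-like, and the M1BP motif near that of RpL22-like, so these letters occurred on both sides of the IDR threshold.

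Pyrimidines were frequent at the starts of RpL genes. Over the first 15 transcribed bases, 79.7% of positions held a pyrimidine at the 45 RpL genes with an IDR summit, against 54.0% at the other genes with such a summit and 52.0% over all protein-coding genes. The TCT initiator was read as C at position 1 and T at position 2 from the TSS with at least 7 pyrimidines among the 8 bases from -2 to 6. At the exact annotated TSS it was found at 2 of the 45 genes (4.44%), at 2 of the 9 RpL genes without an IDR summit (RpL7-like and RpL40) and at 0.904% of all protein-coding genes. Searched within 10 bp of an annotated TSS, a setting chosen after seeing the sequences, it was found at 42 of 45 (93.3%), all but RpL17, RpL12 and RpL26. Its share was then 19.8% of the other genes with an IDR promoter summit and 13.3% of all protein-coding genes. It was also found at 6 of the 9 RpL genes without an IDR summit, namely RpL36A, RpL7-like, RpL21, RpL40, RpL22-like and RpL37-2.

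**Figure D5:**
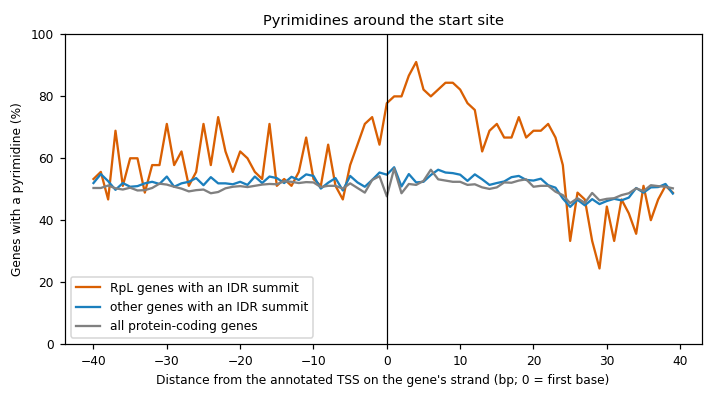
Percent of genes with a pyrimidine (vertical axis) at each base around the annotated TSS with the most transcripts (horizontal axis, bp on the strand of the gene, 0 is the first base), for 45 RpL genes and 1633 other genes with an IDR promoter summit and for all protein-coding genes. RpL genes average 79.7% over the first 15 bases and reach 91.1% at the fifth, while the other genes average 54.0%.

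RpL genes lie on all large chromosome arms. IDR summits were found at 6 of 6 on X, 9 of 13 on 2L, 11 of 14 on 2R, 10 of 10 on 3L and 9 of 11 on 3R, where 8.79% to 13.5% of the protein-coding genes of the arm had one. The median ranks were 599 on X, 172 on 2L, 201 on 2R, 279 on 3L and 348 on 3R.

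Set beside the genes for the small subunit (symbols RpS and a digit, with sta), 29 of 39 RpS genes had an IDR summit (74.4%), with a median rank of 619 and a median position of 8 bp upstream. Among the 500 highest pooled peaks were those at 13 RpS genes (33.3%) and 32 RpL genes (59.3%). Of the 47 mRpL genes, whose proteins form the large subunit in mitochondria, 9 had an IDR summit (19.1%), with a median rank of 1345 and a median position of 123 bp upstream. The differences between these lists were not tested. CG7271 itself had no IDR promoter summit, and its highest pooled promoter summit had rank 2824.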

How the data were processed

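Per the labels, chromatin was sonicated to 200 to 800 bp. The 4 peak lists are on dm6, and per the deposited notes the authors called the peaks of each replicate, and of both together, against a control alignment. Each deposited peak carries a signal value, without a stated scale, and a summit position. Peak caller, aligner, versions, IDR cut and sequencing depth: not given in the sources used here.

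Peaks were ranked by signal within their list (Python 3.11.15, numpy 2.4.6, scipy 1.17.1). Summits were assigned to every gene with a TSS of Ensembl release 115 (coordinates of dm6) within 500 bp, and the assignment was checked on planted summits. Motifs were sought in the RefSeq copy of the assembly. With 1 group, no test was made, and counts stand beside those over all protein-coding genes. Alternatives were other TSS distances, list lengths, single replicates, sharing distances and motif windows. The genes named, the lists and the motifs were chosen with earlier results of these data known. Every member is counted, and 53 are named; the values of the remaining gene are not reported here. The replicates are separate biosamples.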

Additional observations from a re-analysis of the deposited data

How the results depend on the processing

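The number of RpL genes with a promoter summit stayed between 40 and 51 under every alternative run for the IDR count. The 51 belong to the whole pooled list, which reached 54.2% of all protein-coding genes. The 40 belong to the 1222 IDR peaks of highest signal. Near that length, the 1000 and 1500 highest pooled peaks reached 5.33% and 7.70% of all protein-coding genes. The number was 43 without replicate 2 and 45 without replicate 3, counted in the 2445 highest peaks of the remaining replicate without an IDR cut. The median rank at RpL genes was 205.5 among the 1222 IDR peaks of highest signal, and 277 and 281 in the lists without replicate 2 and without replicate 3. The median position was -18 bp without replicate 3, -13 bp without replicate 2 and 1 bp from the 5′ end of the gene record alone. Summits shared with another gene numbered 12 with TSSs within 200 bp and 36 within 1000 bp. Within 50 bp of the TSS the DRE was found at 5 genes and GAGAG at 6. Within 100 bp of the summit TATAAA was found at 9 and GAGAG at 5. The TCT initiator was found at 42 genes within 10 bp of the annotated TSS and at 2 at that TSS, where annotated starts a few bases from the pyrimidine run fail the criterion by construction. The other 39 of 51 values were within 1.5 times the reported count or within the spread between replicates. No paired analysis was possible because there is only 1 group. Depth limits are unknown, since the lists hold no read counts.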

Other observations

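Letters shared by the RpL summits were also looked for among all 2080 words of 6 bases, a word and its reverse complement counting as 1. The words below were chosen after seeing their counts and carry no test. By the difference in share between RpL summits and other IDR promoter summits, the first 3 places were held by words of A and G alone, which on the other strand are pieces of pyrimidine runs. The third of them was AAAGAA. It was present at 25 RpL summits (55.6%), 15.3% of the others and 9.41% of all protein-coding TSSs. Within 50 bp of the TSS it was present at 33 of the 45 RpL genes with an IDR summit. The same held for 4 of the 9 without one (RpL36A, RpL40, RpL22-like and RpL37-2). CCGGAA held the next place. It was present within 50 bp of 20 of 45 RpL summits (44.4%), compared with 5.01% of 1117 other IDR promoter summits and 2.90% of all protein-coding TSSs. It was present at RpL14, RpL7, RpL13A, RpL9 and RpL38 among the highest members. Within 50 bp of the TSS it was present at 24 of the 45 RpL genes with an IDR summit and at 0 of the 9 without one.

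Outside the RpL genes, 1800 protein-coding genes had a TCT initiator within 10 bp of an annotated TSS, and 324 of them (18.0%) had an IDR promoter summit, compared with 12% of all protein-coding genes. Of these 324 genes, 27 were RpS genes. With the RpS genes left out as well, 297 of 1770 genes (16.8%) had one.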
